A study of Mus musculus with 6 samples.

Results

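The membrane-spanning 4-domains subfamily A (MS4A) genes of myeloid cells were examined in RNA-seq of monocytes sorted from the central nervous system (CNS). The group held 9 genes chosen by name (Ms4a4a, Ms4a4b, Ms4a4c, Ms4a4d, Ms4a6b, Ms4a6c, Ms4a6d, Ms4a7 and Ms4a8a) of 54232 genes in the deposited files, and 8 of the 9 had enough counts to be tested. There were 3 libraries of WT monocytes and 3 libraries of Ifnar1-/- monocytes. Ifnar1 encodes a subunit of the type I interferon receptor, and the comparison asked which genes differed between cells that could and could not receive this signal in the same animals.

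Donor bone marrow (BM) was WT (CD45.1) and Ifnar1-/- (CD45.2), mixed in equal parts and given to lethally irradiated GFP+ recipients. All chimeric mice were immunized for experimental autoimmune encephalomyelitis (EAE), a model of multiple sclerosis, and received 30000 IU of recombinant IFN-β daily, so no group without IFN-β or without disease was compared. At the peak of disease, monocytes were sorted as GFP- CD45+ CD11b+ Ly6C-hi Ly6G- cells, which leaves out recipient cells. The labels do not say how many mice gave each library or whether libraries of the same number came from the same mice. The paper's figure legend gives as many recipient mice as samples in each group. Each mouse may thus have given a library of each genotype, but the legend does not state this or link the replicate numbers. The reported fit did not pair libraries, and p-values measure only the spread between these libraries. The knockout is carried in the germline, so its cells lacked the receptor before as well as during treatment, and the CD45 allele went with the genotype in every library. In a bulk library, fewer cells of a type and less RNA per cell cannot be told apart.

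MS4A proteins cross the cell membrane several times, and most of the family sits in a single cluster of neighbouring genes. The founding members are CD20 (Ms4a1) of B cells and the β chain of the high-affinity IgE receptor (Ms4a2) of mast cells and basophils, while another branch is expressed mainly in monocytes and macrophages. Several MS4A proteins are known to associate with other receptors at the membrane and to alter their signaling, and the human MS4A cluster is known as a risk locus for Alzheimer's disease.

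Library totals ranged from 4531782 to 7321380 expected counts. The targeted gene Ifnar1 was read at 111 to 153 normalized CPM in the WT libraries and at 101 to 110 in the Ifnar1-/- libraries, so it was still read in every knockout library. On the TPM scale the order turned, at 37.3 ± 5.40 in WT and 45.7 ± 3.61 in Ifnar1-/- (SD, n = 3), and these gene-level values do not show whether the transcript was intact. The labels were better separated by interferon-stimulated genes: 24 of 25 listed genes were higher in WT, with summed levels of 3898 to 5777 normalized CPM in WT and 1028 to 1362 in Ifnar1-/-. Genes of Ly6C-high monocytes summed to 10170 to 11936 normalized CPM in WT and 10173 to 11973 in Ifnar1-/-. Within these like sums single genes differed in both directions. Ly6c2 had means of 718 in WT and 271 in Ifnar1-/-, and Ccr2 had means of 643 and 989. The library WT 1 stood apart in having 34.8% of its TPM in protein-coding genes, against 43.2 to 51.6% in the other libraries. Normalized CPM are CPM taken on library sizes adjusted by TMM, the trimmed mean of M values. A gene counted as changed when its adjusted p was at most 0.05 and its fold change at least 1.5, by edgeR's quasi-likelihood test with Benjamini-Hochberg adjustment over all 11254 tested genes. By this rule 1.67% of the tested genes were higher in WT and 0.462% were lower.

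Of the 8 tested members, Ms4a4c and Ms4a6b were higher in WT and none was lower. The Ms4a4 genes and the Ms4a6 genes each held 1 changed gene. Ms4a4c changed while Ms4a4a and Ms4a4b did not pass, and Ms4a6b changed while its close relatives Ms4a6c and Ms4a6d did not pass. Ms4a7 and Ms4a8a did not pass either. The same 2 genes were called by DESeq2 and by limma-voom, with none lower. At an unadjusted p under 0.05 (edgeR) there were 4 of the 8 members, with Ms4a4b and Ms4a6c added. By p-value over all 11254 tested genes, Ms4a6c, at an unadjusted p of 0.0171 (edgeR), held rank 1090. Ms4a6d, at an unadjusted p of 0.0589 (edgeR), held rank 2233. At least 1090 and fewer than 2233 of the 11254 tested genes thus had an unadjusted p under 0.05, and the exact share was not computed. Ms4a8a differed least. All WT libraries were above all Ifnar1-/- libraries for 5 of the 8, namely Ms4a4c, Ms4a6b, Ms4a4b, Ms4a6c and Ms4a6d, a separation that 11.1% of all tested genes had in this direction and 12.2% in the other. The log2 fold changes of the 8 tested members had a median of 0.49, beside -0.01 over all tested genes, which describes the members above the count filter only.

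**Figure D1:**
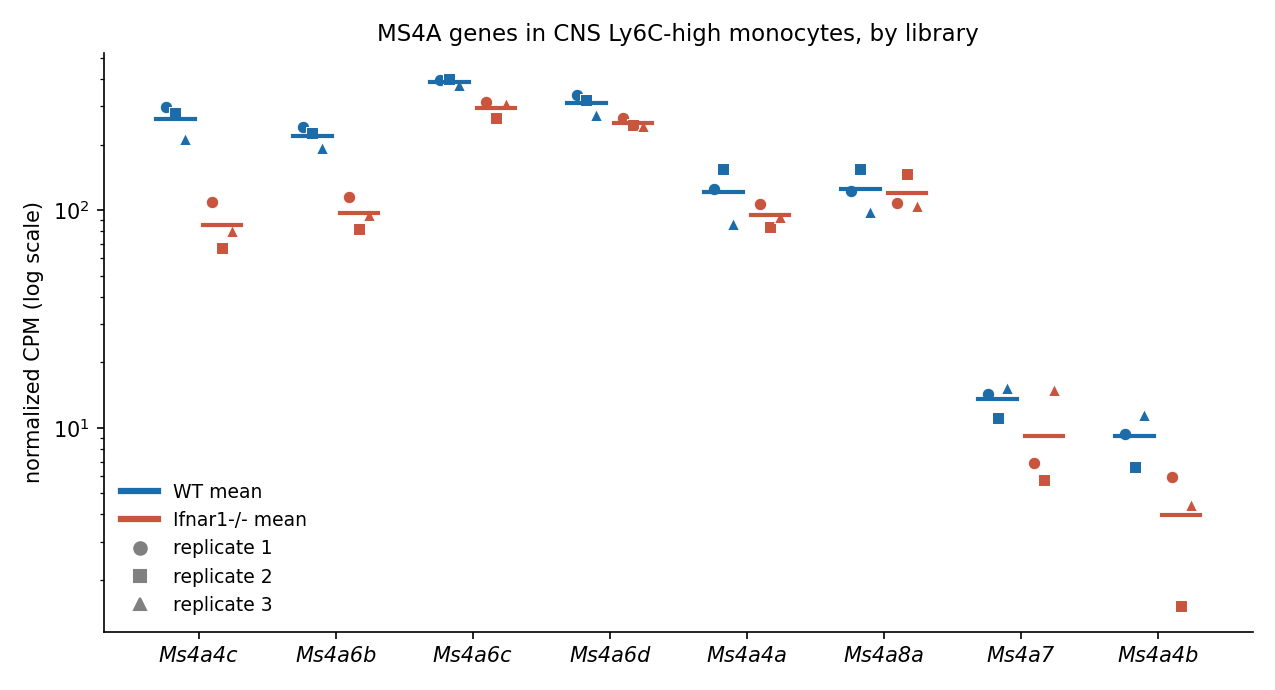
Normalized CPM on a log scale for the 8 tested members in each of the 6 libraries (points, shaped by replicate number) with the mean of each group of 3 (bars). The WT points of Ms4a4c and Ms4a6b sit well above the Ifnar1-/- points, those of Ms4a8a overlap, and Ms4a7 and Ms4a4b lie far below the other members.

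Ms4a4c, a gene known from Ly6C-high monocytes, showed the strongest difference of the family. Its normalized CPM was 298, 279 and 212 in the WT libraries 1 to 3 and 109, 66.9 and 79.8 in the Ifnar1-/- libraries 1 to 3. The lowest WT library was well above the highest knockout library, so the groups did not overlap. The log2 fold change was 1.62 (SE 0.21, 95% interval 1.16 to 2.09), a 3.08-fold higher level in WT, with an adjusted p of 0.00192 (edgeR). By size of log2 fold change Ms4a4c held rank 92 among the 188 genes higher in WT, and by p-value rank 70 among all 11254 tested genes. Leaving out any single library kept it past both thresholds, at log2 fold changes of 1.49 to 1.86.

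Ms4a6b, a gene of monocytes and T cells whose product is known to associate with the receptor GITR, was the other changed member. It was read at 240, 226 and 193 normalized CPM in the WT libraries and at 115, 81.7 and 94.9 in the Ifnar1-/- libraries. The groups were again apart, and the library order within each group was the same as for Ms4a4c. Its log2 fold change was 1.18 (SE 0.17, 95% interval 0.81 to 1.55), or 2.26-fold, with an adjusted p of 0.00393 (edgeR), and leaving out any single library gave 1.08 to 1.33, still past both thresholds. An exact two-sided permutation test of either gene alone gave p = 0.1, and groups of 3 and 3 cannot give a smaller one.

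Log2 fold changes above 0 were also found for markers of T cells and natural killer (NK) cells. Of 19 T cell markers 13 were tested and 0 passed by edgeR, with 10 at an unadjusted p under 0.05. DESeq2 called 1 (Bcl11b, higher in WT) and limma-voom 0. Over all genes, at least 1090 and fewer than 2233 of the 11254 tested had an unadjusted p under 0.05 (edgeR), as given above. All 13 log2 fold changes were above 0, and the 19 markers had summed levels of 39.7 to 91.4 normalized CPM in WT and 16.9 to 42.8 in Ifnar1-/-. Of 8 NK cell markers 3 were tested and Klrk1 was higher in WT, by 2.05 on the log2 scale (SE 0.31, adjusted p = 0.0057, edgeR). The 8 summed to 22.3 to 37.7 normalized CPM in WT and 6.78 to 10.7 in Ifnar1-/-. Klrk1 was a large part of these sums, at 13.5, 16.2 and 15.4 in WT and 3.82, 5.08 and 1.84 in Ifnar1-/-. The remaining tested NK genes did not pass. Gzma stood at 3.70, 2.34 and 7.70 in WT and 3.05, 0.847 and 0.368 in Ifnar1-/- (log2 fold change 1.62, SE 0.66). Nkg7 stood at 3.70, 2.34 and 8.29 in WT and 2.44, 0.678 and 4.78 in Ifnar1-/- (0.86, SE 0.62). Klrk1 and Gzma, 2 of the 3 tested, had an unadjusted p under 0.05 (edgeR). Of the untested NK genes, Ncr1 was read in WT 2 only. Klrb1c, Klrd1, Eomes and Prf1 reached at most 1.18, 1.07, 1.78 and 2.37. In every library, Ms4a4c and Ms4a6b were each read at a higher level than the sum of the T cell markers. The part of these cells in the differences of Ms4a4c and Ms4a6b was not tested.

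The promoters of the changed members are shown beside those of their closest relatives, because each changed gene has a near copy in the cluster that did not pass. Among coding sequences, Ms4a4b and Ms4a4c were identical at 91.7% of aligned bases and Ms4a6b and Ms4a6c at 86.4%. The sequences below are from RefSeq (build GRCm38.p6), plus strand, within the 250 bases before the annotated start. Bases that lie in an annotated GENCODE M21 exon of a member were left out, which removed 106 bases from Ms4a6b, 5 from Ms4a4b and 2 from Ms4a6c. Capitals mark GAGGAA, the core bound by the myeloid factor PU.1, in the Ms4a4 pair, and GAAANNGAA, the pair of repeats bound by interferon regulatory factors, in the Ms4a6 pair. The regions are chr19:11407411-11407660 (Ms4a4c), chr19:11443308-11443552 (Ms4a4b), chr19:11518309-11518452 (Ms4a6b) and chr19:11469118-11469365 (Ms4a6c).
Ms4a4c: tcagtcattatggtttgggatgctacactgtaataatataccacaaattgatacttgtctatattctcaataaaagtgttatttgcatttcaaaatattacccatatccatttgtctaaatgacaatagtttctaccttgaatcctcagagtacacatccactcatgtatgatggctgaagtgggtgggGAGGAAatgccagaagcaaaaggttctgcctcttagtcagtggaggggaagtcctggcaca
Ms4a4b: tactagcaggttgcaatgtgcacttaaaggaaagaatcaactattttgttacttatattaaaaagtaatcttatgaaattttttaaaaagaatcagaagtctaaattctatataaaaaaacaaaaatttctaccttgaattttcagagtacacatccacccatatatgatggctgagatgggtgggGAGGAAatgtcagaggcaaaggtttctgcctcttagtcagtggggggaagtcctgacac
Ms4a6b: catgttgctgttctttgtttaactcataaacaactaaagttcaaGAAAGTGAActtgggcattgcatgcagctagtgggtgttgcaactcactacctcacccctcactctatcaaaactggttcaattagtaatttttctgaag
Ms4a6c: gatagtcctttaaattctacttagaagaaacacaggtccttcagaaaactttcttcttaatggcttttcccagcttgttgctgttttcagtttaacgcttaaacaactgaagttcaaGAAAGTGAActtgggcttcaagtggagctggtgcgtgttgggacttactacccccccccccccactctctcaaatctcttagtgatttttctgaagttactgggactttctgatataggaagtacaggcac

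Each pair shared its motif between the changed gene and the relative that did not pass. GAGGAA lay 61 bases before the start of Ms4a4c and 64 bases before that of Ms4a4b, and it was found in 23.3% of all 32851 mouse promoter windows of the same 250 bases. The same 9 letters of GAAANNGAA stood in both Ms4a6 promoters, 206 bases before the RefSeq start of Ms4a6b and 133 before that of Ms4a6c, and this motif was found in 7.13% of all windows. Over the alignable parts of the whole 250-base windows, which include the exon bases left out above, Ms4a6b and Ms4a6c were identical at 85.1% of bases and Ms4a4c and Ms4a4b at 78.9%. Both strands were searched, also for the interferon-stimulated response element, which is GAAANNGAA with 1 more A at its end and so contains it (2.98% of all windows), and for the gamma-activated site TTCNNNGAA (7.02%), and neither was in a member's window. The only other member with a match was Ms4a7, with GAAANNGAA in both of its windows. The table gave windows for 8 of the 9 members, all but Ms4a6d. The motifs were chosen after the sequences had been seen, and RefSeq starts Ms4a4c at base 11407661 while GENCODE starts the gene at base 11404770, so the Ms4a4c window lies inside the GENCODE gene. The same holds for Ms4a6b, with starts at base 11518559 in RefSeq and 11516512 in GENCODE. A match is a description of letters and says nothing of binding in these cells.

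Ms4a4b, the near copy of Ms4a4c and a gene best known from T cells, had a fold change like that of Ms4a6b but at a much lower level. Its normalized CPM was 9.39, 6.59 and 11.5 in the WT libraries and 5.96, 1.53 and 4.41 in the Ifnar1-/- libraries. The groups did not overlap, but WT 2 and Ifnar1-/- 1 were close. The log2 fold change was 1.20 (SE 0.41, 95% interval 0.29 to 2.11) with an adjusted p of 0.167 (edgeR), so it did not pass. It did pass in 2 of the 18 alternative fits that could give a value, at an adjusted p of 0.00464 (edgeR) without a filter on low counts and 0.00911 with offsets for gene length and GC content plus the replicate block.

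Ms4a4b ran along with the T cell markers across the libraries. The summed T cell markers were 90.5, 39.7 and 91.4 normalized CPM in the WT libraries and 42.8, 16.9 and 21.5 in the Ifnar1-/- libraries. The order of the libraries was the same in both measures but for WT 2 and Ifnar1-/- 1, which exchanged places. The part of T cells in the Ms4a4b values was not tested. The counting also touched this gene: the expected counts of Ms4a4b and Ms4a4c were fractional in all 6 libraries, while the sum of the pair was whole, within 0.011, in all 6, at 2159, 1346 and 1130 in WT and 753, 404 and 458 in Ifnar1-/-. RSEM therefore split reads between them, and the Ms4a4b level of 9.25 to 65.6 expected counts is uncertain to that extent. Of all 75-base stretches in its transcripts, 1.18% also occurred in Ms4a4c or Ms4a2.

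**Figure D2:**
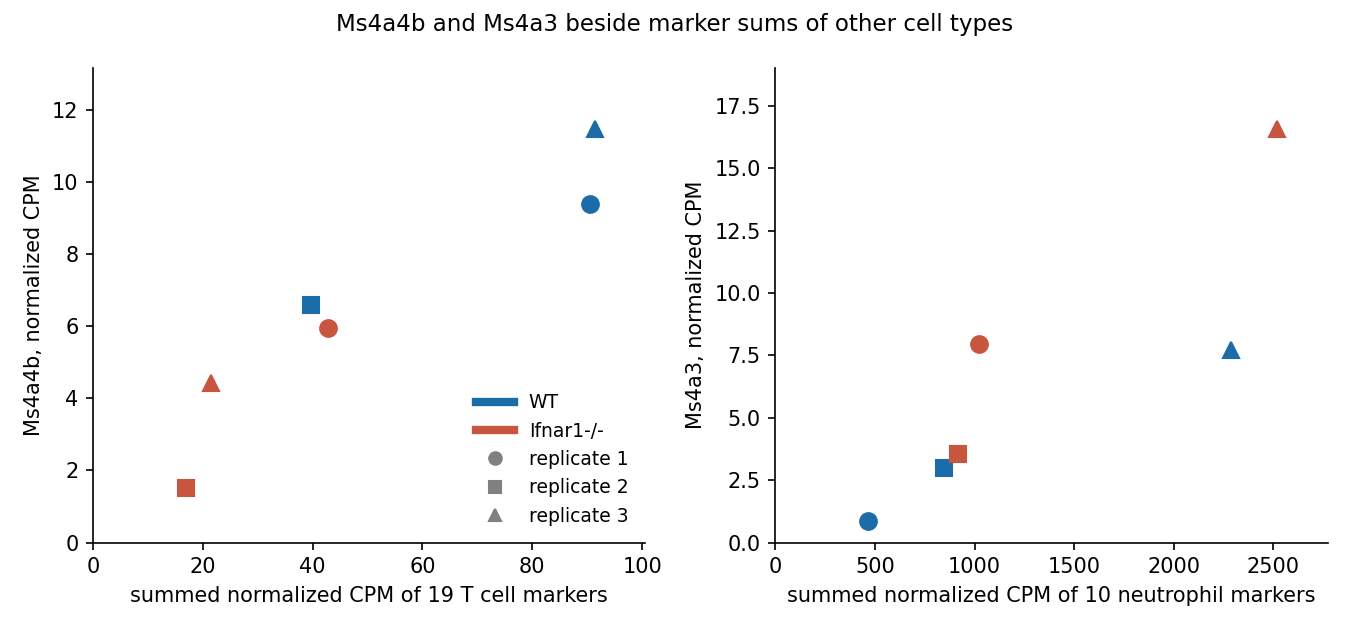
Left, Ms4a4b against the sum of 19 T cell markers, and right, Ms4a3 against the sum of 10 neutrophil markers, all in normalized CPM, with 1 point for each of the 6 libraries. In both panels the library with the lowest marker sum also has the lowest level of the MS4A gene, and the library with the highest sum has the highest level.

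Ms4a6c, a less studied monocyte gene, was read at 396, 399 and 374 normalized CPM in WT and at 313, 265 and 307 in Ifnar1-/-. The groups did not overlap and the WT libraries were close together. The difference was small, with a log2 fold change of 0.40 (SE 0.14, 95% interval 0.09 to 0.72), 1.32-fold, and an adjusted p of 0.176 (edgeR). The interval lay above 0 and wholly below the value of 1.18 found for Ms4a6b. In 1 of the 19 alternatives, edgeR with an offset for gene length and GC content and a replicate block, its log2 fold change was 0.58 with an adjusted p of 0.0464, and the fold change stayed under the threshold of 1.5. Of its 75-base stretches 47.7% also occurred in BE692007, an antisense gene that overlaps it on the opposite strand, to which RSEM gave 2 to 6 counts in each library. Reads shared with Ms4a6b made the expected counts of this pair fractional in 2 of 6 libraries.

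Ms4a6d, another monocyte and macrophage gene of this branch, stood at 338, 319 and 273 normalized CPM in WT and at 264, 245 and 243 in Ifnar1-/-. Every WT library was above every knockout library, with WT 3 and Ifnar1-/- 1 nearly level. The log2 fold change of 0.31 (SE 0.14, 95% interval -0.01 to 0.63) had an adjusted p of 0.296 (edgeR) and did not pass.

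Ms4a4a, a macrophage protein known to associate with the β-glucan receptor Dectin-1, gave 125, 154 and 85.9 normalized CPM in WT and 107, 83.7 and 92.7 in Ifnar1-/-. WT 3 was below 2 of the 3 knockout libraries. Its log2 fold change was 0.36 (SE 0.21, 95% interval -0.09 to 0.82, adjusted p = 0.388, edgeR). Ms4a8a, which is known from alternatively activated macrophages, gave 122, 154 and 97.9 in WT and 108, 147 and 105 in Ifnar1-/-. The groups lay over each other and replicate 2 was the highest in both. The log2 fold change of Ms4a8a was 0.05 (SE 0.20, 95% interval -0.38 to 0.49, adjusted p = 0.922, edgeR), so a fold change of 1.5 in either direction was outside the interval, and the sign turned when WT 2, Ifnar1-/- 1 or Ifnar1-/- 3 was left out.

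Ms4a7, a gene of tissue macrophages, was low at 14.4, 11.1 and 15.2 normalized CPM in WT and 6.87, 5.76 and 14.9 in Ifnar1-/-. Ifnar1-/- 3 lay among the WT libraries and apart from the other knockout libraries. The log2 fold change was 0.58 (SE 0.33, 95% interval -0.16 to 1.31, adjusted p = 0.395, edgeR). Without Ifnar1-/- 3 it was 1.12 and still did not pass. Ms4a4d was read by 1 count, in WT 2, and by 0 counts in the other 5 libraries. A count of 0 allows up to 3 counts, or 0.427 to 0.638 normalized CPM in these libraries, and no fold change is given.

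**Figure D3:**
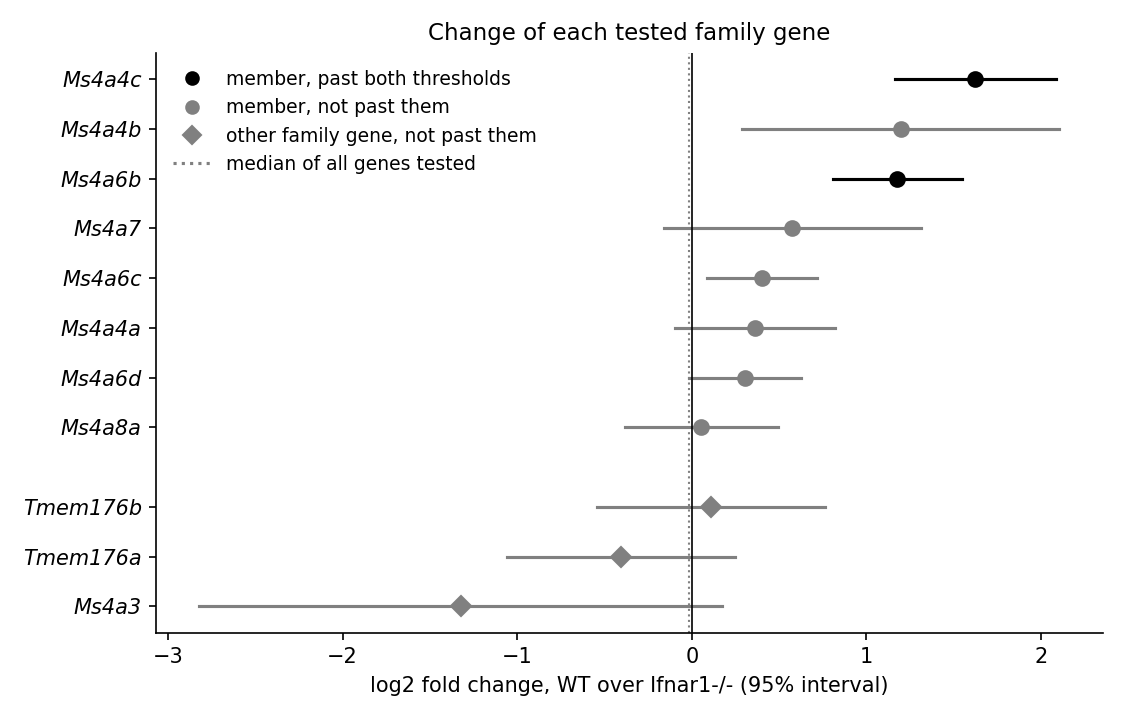
Log2 fold change of WT over Ifnar1-/- with its 95% interval for the 8 tested members (circles) and 3 other tested family genes (diamonds); black marks the genes past both thresholds and the dotted line is the median of all tested genes, at -0.01. The intervals of Ms4a4c and Ms4a6b lie apart from that of Ms4a8a, and the interval of Ms4a4b is wide.

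Levels of different genes were compared on the TPM scale, which is per transcript length. In WT monocytes Ms4a4c led at 535 ± 110 TPM (SD, n = 3), and its 3 libraries were above those of the next member, Ms4a6c, at 315 ± 79.7 TPM. Ms4a6b (243 ± 54.7), Ms4a6d (231 ± 36.3), Ms4a4a (175 ± 62.9) and Ms4a8a (129 ± 42.9) followed, and each of these had a range that overlapped that of the member just before it in the order. Ms4a7 (13.9 ± 4.81 TPM) and Ms4a4b (10.0 ± 4.56) came next, overlapping each other and well below Ms4a8a.

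In Ifnar1-/- monocytes the order differed. Ms4a6c led at 235 ± 5.50 TPM (SD, n = 3), above Ms4a6d at 186 ± 15.7 with no overlap. Ms4a4c held rank 3 at 151 ± 34.8 TPM, then Ms4a4a (131 ± 9.26), Ms4a8a (123 ± 35.9) and Ms4a6b (94.7 ± 8.46), with each range overlapping that of the member just before it. Ms4a7 (8.52 ± 5.21) and Ms4a4b (4.24 ± 2.44) again were low. On the TPM scale Ms4a4c had thus gone from rank 1 to rank 3 and Ms4a6b from rank 3 to rank 6. These ranks depend on the scale, since normalized CPM are not per transcript length. On that scale Ms4a6c (390), Ms4a6d (310), Ms4a4c (263) and Ms4a6b (219) had these means in WT. In Ifnar1-/- the means of the same genes were 295, 251, 85.3 and 97.0 normalized CPM.

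Ratios within a library do not depend on how libraries are scaled to each other. The TPM of Ms4a4c over that of Ms4a6c was 2.07, 1.70 and 1.43 in the WT libraries and 0.789, 0.620 and 0.516 in the Ifnar1-/- libraries. On the TPM scale every WT library thus held more Ms4a4c than Ms4a6c and every knockout library less. On the normalized CPM scale, which is not per length, Ms4a4c was below Ms4a6c in all 6 libraries. In WT it stood at 298, 279 and 212 against 396, 399 and 374 for Ms4a6c. The ratio of Ms4a6b to Ms4a6c was 0.852, 0.779 and 0.708 in WT and 0.440, 0.377 and 0.394 in Ifnar1-/-. Ms4a4c over Ms4a6b was 2.44, 2.18 and 2.03 in WT and 1.79, 1.64 and 1.31 in Ifnar1-/-. For Ms4a6d over Ms4a6c the groups overlapped, at 0.847, 0.689 and 0.711 against 0.779, 0.849 and 0.749. Of the 6 ratios computed, those of Ms4a4c to Ms4a6c, to Ms4a6b and to Ms4a4a and that of Ms4a6b to Ms4a6c did not overlap between groups, each with an exact permutation p of 0.1. Each of these has a changed member, Ms4a4c or Ms4a6b, as its numerator, so they largely restate those differences. No share over all pairs of genes was computed.

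The members together summed to 1356, 2067 and 1536 TPM in WT and to 970, 979 and 849 TPM in Ifnar1-/-. Ms4a4c made up 32.5 ± 2.59% of this sum in WT and 16.1 ± 2.84% in Ifnar1-/- (SD, n = 3), and Ms4a6b 14.7 ± 0.215% and 10.2 ± 0.869%. The shares of Ms4a6c (19.0 and 25.2%), Ms4a6d (14.1 and 20.0%), Ms4a4a (10.4 and 14.1%) and Ms4a8a (7.71 and 13.1%) were larger in every knockout library than in any WT library, though none of these genes had a higher mean TPM there. RSEM gave Ms4a4c a short mean transcript length of 630 to 765 bases, against 1406 to 1418 bases for Ms4a6d, so its share was smaller on the normalized CPM scale, at 18.0% in WT and 8.85% in Ifnar1-/-.

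**Figure D4:**
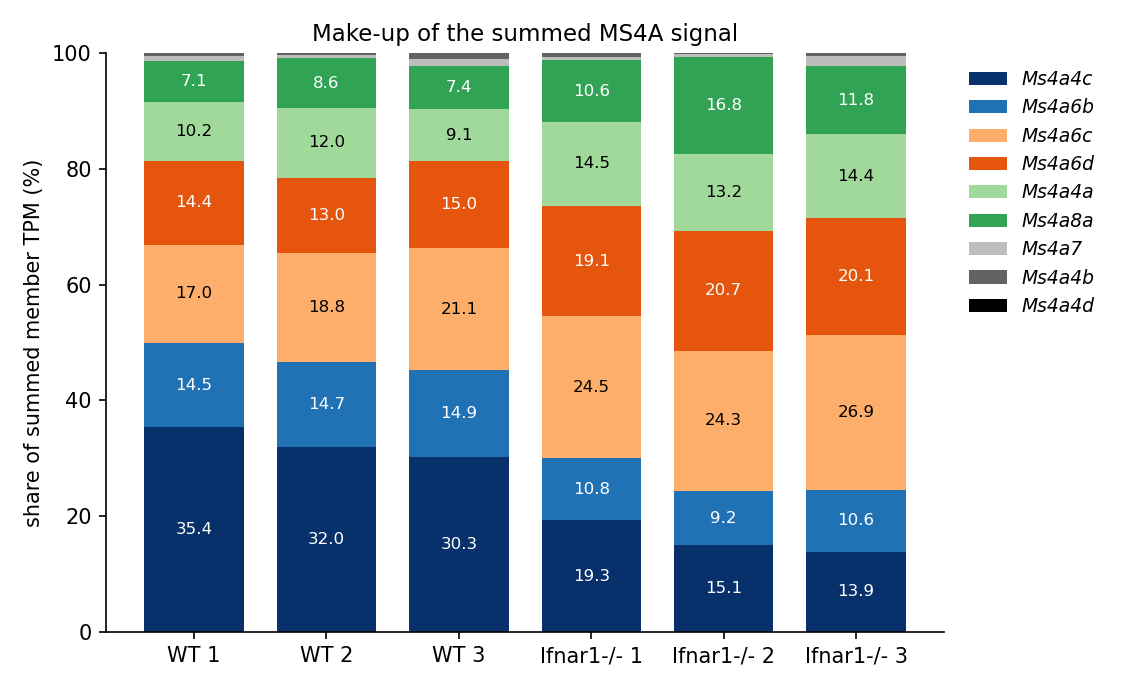
Share of each member in the summed TPM of the 9 members, in percent, for each of the 6 libraries. Ms4a4c holds 30.3 to 35.4% of the bar in the WT libraries and 13.9 to 19.3% in the Ifnar1-/- libraries.

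RSEM's mean transcript length of a gene moves with the isoforms to which it gives reads. For Ms4a6b it was 1057, 962 and 1064 bases in the WT libraries and 1127, 1101 and 1098 in the Ifnar1-/- libraries. The WT lengths were all shorter, with means of 1027 and 1109 bases (exact permutation p = 0.1). Of 8985 tested genes whose mean length varied between libraries, 4.63% had a separation in this direction and 6.01% in the other. For Ms4a4c the lengths overlapped, at 634, 630 and 670 bases against 680, 641 and 765. Both genes stayed past the thresholds when the fit had an offset for gene length. That offset used each gene's mean length over all libraries, so it could not adjust for a length that differed between groups.

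The members lie on chromosome 19 (GRCm38, GENCODE M21 annotation) between bases 11067471 and 11604849, a span of 537 kb with 27 annotated genes. Of these, 17 are protein-coding and 10 were tested, 8 of them members. Ms4a4c lies at bases 11404770 to 11427246 and Ms4a6b at bases 11516512 to 11531256, both on the plus strand. Between them stand Ms4a4b (11443553 to 11467055), Ms4a6c (11469366 to 11482192) and Gm8369, so the changed genes were not neighbours among the tested genes. Ms4a8a (11067471 to 11081102, minus strand), Ms4a7 (11321039 to 11336146, minus strand) and Ms4a4a (11375523 to 11392790, plus strand) lie before Ms4a4c, while Ms4a4d (11536801 to 11558467, plus strand) and Ms4a6d (11586604 to 11604849, minus strand) lie past Ms4a6b. Gm8369, a protein-coding gene between Ms4a6c and Ms4a6b, was read at 1.57, 4.89 and 4.34 normalized CPM in WT and at 3.21, 1.53 and 0.920 in Ifnar1-/-, and its 0.86 on the log2 scale (SE 0.55) came with an adjusted p of 0.448 (edgeR). The processed pseudogene Gm6501, near Ms4a8a, stood at -0.75 on the log2 scale (SE 0.42; edgeR, adjusted p = 0.377). The tested genes that flank the members did not pass either: the lincRNA gene AW112010 on the Ms4a8a side had -0.06 (SE 0.32, adjusted p = 0.950) and Ms4a3 on the Ms4a6d side -1.32 (SE 0.67, adjusted p = 0.332), both by edgeR.

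**Figure D5:**
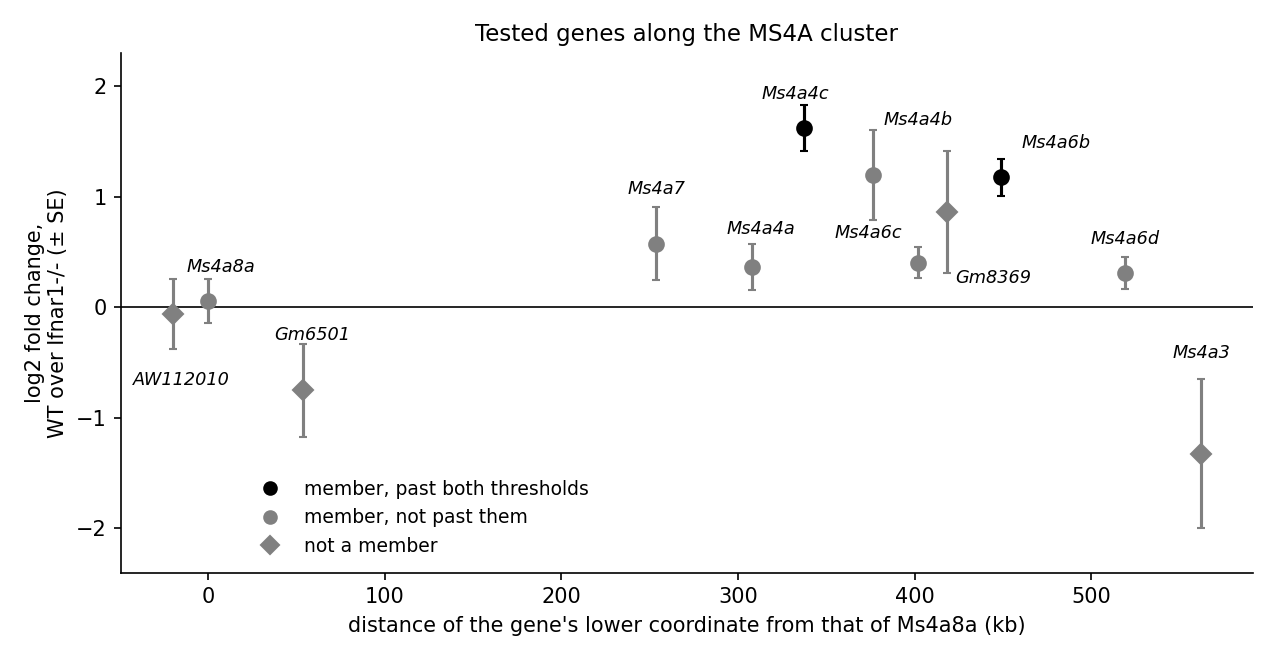
Log2 fold change of WT over Ifnar1-/- (± SE) for the tested genes of the cluster and the next tested gene on each side, against the distance in kb from Ms4a8a. The changed genes Ms4a4c and Ms4a6b stand 337 and 449 kb from Ms4a8a, with members that did not pass between them and beside them.

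The remaining family genes gave little signal. Of 12 further MS4A and related genes 3 were tested and 0 passed by edgeR, with 0 at an unadjusted p under 0.05 and 0 called by DESeq2 or limma-voom. Ms4a5, Ms4a10, Ms4a12, Ms4a13, Ms4a15 and Ms4a18 had no count in any library, and Ms4a1 (CD20) and Ms4a2 had at most 2 counts. The B cell genes Pax5 and Ebf1 and the mast cell genes Fcer1a, Cpa3 and Tpsb2 were also at 0. The 9 B cell markers summed to 9.99 to 21.3 normalized CPM in WT and 7.79 to 14.9 in Ifnar1-/-, and the 8 mast cell and basophil markers to 10.8 to 22.7 and 5.59 to 15.3. Of each list 2 genes were tested, with 0 passing by edgeR, DESeq2 or limma-voom and 0 at an unadjusted p under 0.05. Ms4a14 had 22, 7 and 4 counts in WT and 0, 4 and 2 in Ifnar1-/-, too few to be tested. Without the filter on low counts Ms4a14 (higher in WT) and Ms4a3 (lower in WT) passed, and neither was called in another alternative. The related Tmem176a and Tmem176b had log2 fold changes of -0.40 (SE 0.30) and 0.11 (SE 0.29).

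Ms4a3, a gene of granulocyte and monocyte progenitors, was read at 0.854, 2.98 and 7.70 normalized CPM in WT and at 7.94, 3.56 and 16.6 in Ifnar1-/-. The groups overlapped. The 10 neutrophil markers summed to 465, 845 and 2288 normalized CPM in WT and to 1020, 919 and 2519 in Ifnar1-/-, with 9 tested and 0 passing by edgeR, 1 at an unadjusted p under 0.05, and 1 called by DESeq2 (Csf3r, higher in WT) but 0 by limma-voom. WT 1 was lowest and Ifnar1-/- 3 highest in both measures. The part of neutrophils or of their precursors in the Ms4a3 values was not tested.

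The list of receptors and adaptors linked to MS4A proteins held no changed gene. All 14 genes were tested and 0 passed by edgeR, with 2 at an unadjusted p under 0.05, 1 called by DESeq2 (Fcgr1) and 0 by limma-voom, and with a median log2 fold change of -0.05. Dectin-1 (Clec7a) was read at 1242, 1312 and 1073 normalized CPM in WT and at 1730, 1405 and 1163 in Ifnar1-/- (log2 fold change -0.24, SE 0.19, adjusted p = 0.539). Trem2, a lipid receptor of macrophages, was read at 45.4, 46.8 and 50.5 in WT and 44.0, 54.2 and 59.8 in Ifnar1-/- (log2 fold change -0.15, SE 0.15, adjusted p = 0.655). The smallest adjusted p of the list was 0.084, for the Fcγ receptor gene Fcgr1 (log2 fold change 0.71, SE 0.18), all by edgeR. Clec7a, Trem2, Fcgr1, Csf3r and Bcl11b were picked for mention after their values had been seen.

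By edgeR the lists of monocyte and macrophage genes held 1 changed gene each or none. Of 10 tested tissue macrophage genes 1 passed, the transcription factor Maf, higher in WT (log2 fold change 0.85, SE 0.17, adjusted p = 0.0336, edgeR). DESeq2 called 2, Maf and Mrc1, the latter lower in WT (-0.79, SE 0.18, adjusted p = 0.0610 by edgeR), limma-voom called Maf alone, and 3 had an unadjusted p under 0.05 (Maf, Mrc1 and Mertk, edgeR), while Lyve1 and Timd4 were at 0. The list summed to 2169 to 4208 normalized CPM in WT and 1890 to 2697 in Ifnar1-/-. Of 11 Ly6C-high monocyte genes 1 passed, Ly6c2, which encodes the sorted antigen, higher in WT (1.40, SE 0.23, adjusted p = 0.00957, edgeR). DESeq2 called 4, Ly6c2, Fcgr1 and Plac8 higher and Ccr2 lower in WT, and limma-voom called Ly6c2 alone. Mrc1, Mertk, Plac8 and Ccr2 were likewise picked after their values had been seen. Of 8 Ly6C-low monocyte genes 0 passed by edgeR, with 1 at an unadjusted p under 0.05 and 0 called by DESeq2 or limma-voom, and their sums were 319 to 512 in WT and 353 to 408 in Ifnar1-/-. The 9 microglia markers summed to 260 to 330 in WT and 298 to 376 in Ifnar1-/-, with 5 tested, 0 passing by edgeR, 0 at an unadjusted p under 0.05 and 0 called by DESeq2 or limma-voom.

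The genes whose levels ran most like those of the 3 members of highest mean TPM over all 6 libraries (Ms4a4c, Ms4a6c and Ms4a6d, although in WT alone Ms4a6b stood above Ms4a6d) were named by Pearson's r of log2 normalized CPM over the 6 libraries, given as a description because the points share the group difference and the library depth. For Ms4a4c these were Tigit (r = 0.993), Trim30a (0.991) and Camk2d (0.988). Trim30a was itself higher in WT, at 279, 223 and 217 normalized CPM against 93.5, 62.7 and 67.9 (log2 fold change 1.68, adjusted p = 0.000827, edgeR), a difference close in size to that of Ms4a4c, while Tigit was read at no more than 2.13 normalized CPM. For Ms4a6c they were Crkl (0.993), Rubcnl (0.991) and Gab3 (0.988), and for Ms4a6d they were Ptafr (0.995), Fbxl14 (0.989) and Shisa5 (0.985). None of these 6 passed the thresholds.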

How the data were processed

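Bulk RNA-seq of sorted CNS monocytes gave 6 libraries, grouped by the deposited labels. The labels name a stranded total RNA kit for very small input from Takara, while the methods name another stranded kit. The authors mapped paired-end reads to GRCm38 and used RSEM (1.2.31, with STAR 2.6.0c, per the labels' processing notes), which split reads between similar transcripts. The deposited expected counts are estimated and not normalized, and the authors' TPM are scaled to a fixed sum in each library and to transcript length. RSEM's strand setting is not given in the sources used here.

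Expected counts were rounded to whole numbers. GENCODE M21 named 54165 of 54232 genes and left 67 unmatched. Of 21265 genes with any count, 11254 passed filterByExpr (minimum count 10). WT and Ifnar1-/- were compared with edgeR 4.0.16 in R 4.3.3 (TMM, quasi-likelihood test, no block). Standard errors are the fitted log2 coefficient over the root of F, and the 95% intervals use the t distribution with the fit's degrees of freedom. Permutation tests of single values were exact and two-sided, on log2(normalized CPM + 0.5), on the log2 ratio, or on the share or length itself. No test was made within batches, since the labels give none. The fit was tested on simulated counts. Floors and intervals of counts cover counting error only.

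The fit was repeated with DESeq2 1.42.0 (used in the study's methods), with RLE size factors, without the filter, with a filter of 10 counts in all libraries, with limma-voom, with limma 3.58.1 on log2(TPM + 1), with mitochondrial and ribosomal RNA genes removed, with a replicate block, with an offset for gene length and without each library in turn. Offsets for length and GC content together and leave-one-out shares were added after seeing the data.

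Named are all members, the detected genes of the rest of the family, the genes of the other lists that passed (up to 4 in each direction) or were at 0, the 3 protein-coding genes most like each of the 3 members of highest mean TPM, and the tested genes in and beside the cluster. The members, lists and tests were chosen with earlier results of these data known.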

Additional observations from a re-analysis of the deposited data

How the results depend on the processing

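Ms4a4c and Ms4a6b passed both thresholds in all 19 alternatives, and no member was lower in WT in any of them. The members higher in WT were 2 in the reported fit and 3, with Ms4a4b added, without a filter on low counts and with the length and GC offsets plus the replicate block. Ms4a8a turned sign without WT 2 (-0.11), without Ifnar1-/- 1 (-0.00) and without Ifnar1-/- 3 (-0.02), and passed in none, with 1 library left out giving -0.11 to 0.24. The genes called higher and lower in WT over all genes, 188 and 52 in the reported fit, were 314 and 105 with DESeq2, 610 and 262 without a filter, and 112 and 16 with limma on log2(TPM + 1). Leaving out 1 library gave 110 to 204 higher and 7 to 41 lower, and the cause of these shifts was not tested. The replicate block gave 182 and 38. Deviations of same-numbered libraries correlated at 0.09, 0.03 and 0.28, so the numbers were not taken to pair the libraries, and the block alone changed no member's call. Of 18 group means of shares, 10 moved by more than 1 SD on the normalized CPM scale.

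The 3 libraries in a group limit what can be told of Ms4a7 and Ms4a4b, whose intervals are wide, and depth limits Ms4a4d.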
